A study of Mus musculus with 96 samples.

Results

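Immediate early response genes are genes whose transcripts appear quickly after a stimulus without new protein synthesis. Their promoters are read by factors already in the cell, such as CREB, SRF with its ternary complex partners, NF-kappaB and p53, and many of their mRNAs are short-lived. In liver they are known for their response to regeneration, feeding, stress and tissue handling, so single livers can differ widely. The 10 genes described here are Egr1, Fos, Fosb, Jun, Junb, Atf3, Ier2, Ier3, Btg2 and Plk3, chosen by name. They were 10 of the 24066 genes that carried a single entry in every expression table. Their values were followed through all 96 liver libraries.

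The libraries came from C57BL/6J mice in 8 arms, each with 3 libraries at each of 4 zeitgeber times (ZT, hours after lights on). The arms were livers of shifted and control mothers, of shifted and control fetuses, of high-fat offspring of shifted and control mothers, and of low-fat offspring of shifted and control mothers. Shifted mothers had their light cycle moved earlier by 8 h every 5 days during pregnancy only, and control mothers stayed on 12 h of light and 12 h of dark. The offspring were males that ate the high-fat or the low-fat diet for 12 weeks from 4 weeks of age. The labels give no gestation day, no fetal sex or pooling, no link between fetuses and mothers, and no time since the last light advance. Nothing says that the 3 libraries of a group came from separate animals, so p-values measure the spread between these libraries, which may be technical. In whole livers, fewer cells of a type and less RNA per cell cannot be told apart.

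Values are FPKM, that is fragments mapped to a transcript relative to its length and to all mapped fragments, scaled between libraries of a stage. No counts were used here and the depth behind each value is unknown. Deposited FPKM summed over the 24066 genes to 535912 to 612061 in mothers, 619897 to 804453 in fetuses and 497208 to 742626 in offspring. One library stood apart, replicate 1 at ZT0 of the high-fat offspring of control mothers. It listed 15512 genes at 0, among them Fos, Fosb, Jun, Atf3, Ier3 and Plk3, so the level differences of members that use it are also given without it where they are named. Replicates 2 and 3 at ZT6 of the low-fat offspring of control mothers, and replicates 1 and 2 at ZT12 of the low-fat offspring of shifted mothers, were the closest pairs and are called nearly equal here. The interquartile range of their log2 differences was 0.107 and 0.132, against a median of 0.4 over all 96 replicate pairs. No gap set them apart. The next closest pairs, at 0.184 and 0.216, and several after them were high-fat offspring of shifted mothers, and none of these was averaged. The hepatocyte markers were above 0 in every arm. Summed neutrophil and erythroid markers had medians of 7170 and 2350 FPKM in shifted fetuses and 7740 and 2110 FPKM in control fetuses, against 9.81 and 33.6 FPKM in shifted mothers and 7.61 and 33.1 FPKM in control mothers.

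The members lie at separate loci of the mm10 genome, with positions from GENCODE M21. Fos and Fosb, which form AP-1 with JUN proteins, lie at chr12:85473890-85477273 on the plus strand and chr7:19302696-19310051 on the minus strand. Jun, an AP-1 subunit, lies at chr4:95049034-95052222 on the minus strand, and Junb, its relative, at chr8:84974484-84978718 on the minus strand. Atf3, a stress-induced bZIP factor, lies at chr1:191170296-191218039 on the minus strand. Ier2, a nuclear protein, lies at chr8:84661331-84662852 on the minus strand, on the chromosome of Junb. Ier3, a regulator of cell survival, lies at chr17:35821684-35822923 on the plus strand. Btg2, an antiproliferative p53 target that promotes mRNA deadenylation, lies at chr1:134075170-134079120 on the minus strand. Plk3, a polo-like stress kinase, lies at chr4:117128655-117133963 on the minus strand, on the chromosome of Jun.

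The promoters of 5 members are shown, those of Jun, Junb and Plk3, which passed a test described below, and those of Btg2 and Atf3, which passed none. The RefSeq promoter set used here, on GRCm38.p6, held a promoter for 8 of the 10 members. Egr1 and Ier2, which also passed tests, had no entry in it and are not shown. Each run is the 250 bases before the RefSeq start, 5′ to 3′ on the gene's own minus strand. Capitals mark TGACNTCA, the cAMP response element with any base in its middle, or its core TGACG, on either strand (CGTCA is the core on the other strand). The runs are Jun at chr4:95052223-95052472, Junb at chr8:84978749-84978998, Btg2 at chr1:134079156-134079405, Plk3 at chr4:117133964-117134213 and Atf3 at chr1:191183334-191183583. The Atf3 run lies inside the longer GENCODE gene, before a shorter RefSeq transcript.
Jun: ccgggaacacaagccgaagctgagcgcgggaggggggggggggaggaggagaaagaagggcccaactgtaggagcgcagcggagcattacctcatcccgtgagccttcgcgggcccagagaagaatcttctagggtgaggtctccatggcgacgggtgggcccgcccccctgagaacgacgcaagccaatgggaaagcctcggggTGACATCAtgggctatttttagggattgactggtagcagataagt
Junb: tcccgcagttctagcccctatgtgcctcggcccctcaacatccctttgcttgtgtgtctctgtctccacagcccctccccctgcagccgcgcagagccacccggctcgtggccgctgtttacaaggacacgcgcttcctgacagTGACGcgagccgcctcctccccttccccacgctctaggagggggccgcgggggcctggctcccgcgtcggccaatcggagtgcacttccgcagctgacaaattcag
Btg2: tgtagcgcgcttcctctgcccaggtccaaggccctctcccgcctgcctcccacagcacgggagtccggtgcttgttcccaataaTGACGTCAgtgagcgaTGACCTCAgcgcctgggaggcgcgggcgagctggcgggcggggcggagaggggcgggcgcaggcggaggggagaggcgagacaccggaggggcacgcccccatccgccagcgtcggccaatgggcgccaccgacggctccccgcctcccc
Plk3: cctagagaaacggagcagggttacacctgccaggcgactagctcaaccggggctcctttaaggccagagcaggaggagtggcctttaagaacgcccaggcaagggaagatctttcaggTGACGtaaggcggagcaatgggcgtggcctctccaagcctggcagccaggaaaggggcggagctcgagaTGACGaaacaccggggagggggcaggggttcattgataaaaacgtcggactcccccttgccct
Atf3: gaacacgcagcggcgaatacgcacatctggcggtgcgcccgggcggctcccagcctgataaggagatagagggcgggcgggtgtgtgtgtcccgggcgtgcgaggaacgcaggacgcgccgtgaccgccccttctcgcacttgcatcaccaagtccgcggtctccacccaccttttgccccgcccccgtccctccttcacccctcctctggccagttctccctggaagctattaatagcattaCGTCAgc

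The full element TGACGTCA was found in 1 of the 8 promoters, that of Btg2 at 166 bases before the start, and in 1.55% of all 32851 RefSeq mouse promoters of this length. TGACNTCA was in 2, Btg2 again at 150 bases and Jun as TGACATCA at 45 bases, against 7.49% of all promoters. The core TGACG, which overlaps the full element, was in 6 (Atf3, Btg2, Fos, Fosb, Junb and Plk3), against 17.8% of all. No match in these windows was found for the AP-1 site TGANTCA, present in 6.75% of all promoters, the E-box CACGTG, in 6.02%, or the CArG box, in 1.47%. CCAAT was in 4 promoters against 33.8% of all, GGGCGG in 7 against 32.7%, GCGNGGGCG in 2 against 4.7% and TATAAA in that of Fos alone against 12.4%. All motifs were searched on both strands, the capitals were chosen after the sequences had been read, and a match is a description, not a site. The GC share of these 8 promoters was 54.4% to 73.2%. The shares over all promoters were not matched for it, so they cannot show an enrichment.

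Across the stages Btg2 and Ier3 were higher in fetuses than in mothers and offspring, and the other members had overlapping ranges. Btg2 was at a median of 43.7 FPKM (36.1 to 64.4 in 24 fetal libraries), against 3.77 FPKM in mothers (1.94 to 7.16 in 24) and 3.01 FPKM in offspring (1.37 to 17.6 in 48). The median in fetuses was 11.6 times that in mothers. Ier3 had a median of 8.04 FPKM in fetuses (5.09 to 10.2), against 1.33 FPKM in mothers (0.558 to 3.30) and 0.553 FPKM in offspring (0 to 4.48). Both genes were higher in every fetal library than in every library of the mothers or offspring. On the deposited scale the Ier3 ranges of fetuses and offspring overlapped. Of 9 members tested, these 2 were fully higher in fetuses than in mothers, where 43.2% of all 12472 genes were. Of 8 members, the same 2 were fully higher in fetuses than in offspring, where 28.5% of all genes were. No member was fully lower in fetuses than in mothers (7.22% of all genes) or offspring (5.11%), and none lay fully higher (0.334%) or lower (0.758%) in offspring than in mothers. These counts are below or near those shares and are a description with no test. Scaling was done within each stage, so levels of different stages are not on 1 common scale. The fetal arms also held the neutrophil and erythroid markers given above. Median sums in control fetuses and control mothers were 741 and 226 FPKM for Kupffer cell and macrophage, 46.2 and 2.14 for lymphocyte and 120 and 78.4 for stellate cell markers. They were 70 and 56.1 FPKM for endothelial, 14.1 and 22.1 for cholangiocyte and 54900 and 124000 for hepatocyte markers. The part of these cells in the Btg2 and Ier3 levels was not tested.

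The AP-1 genes differed among themselves in level. Fos had medians of 0.588 FPKM in fetuses, 0.459 FPKM in mothers and 0.252 FPKM in offspring, and its highest value was 2.32 FPKM. Fosb never passed 0.321 FPKM in any library. Jun medians lay within a narrow band, 2.62 FPKM in fetuses, 2.55 FPKM in mothers and 2.60 FPKM in offspring. Junb medians were 7.63 FPKM in fetuses, 4.04 FPKM in mothers and 3.83 FPKM in offspring. Levels are per length of transcript, so Jun and Junb were more abundant than their partner Fos at every stage. Egr1 varied widely within each stage, with a median of 10.3 FPKM in fetuses (3.43 to 33.6), 7.04 FPKM in mothers (3.06 to 45.8) and 1.49 FPKM in offspring (0.350 to 15.9). Plk3 had the opposite order of medians, with 2.49 FPKM in fetuses, 5.45 FPKM in mothers and 12.5 FPKM in offspring, and overlapping ranges. Ier2 was at 12.2 FPKM in fetuses, 8.13 FPKM in mothers and 9.97 FPKM in offspring. Atf3 was at 1.28 FPKM in fetuses, 0.741 FPKM in mothers and 0.639 FPKM in offspring, again with overlapping ranges. Ordered by median, Jun was highest in control mothers (4.05 FPKM), then in high-fat offspring of shifted mothers (3.91), control fetuses (3.32), high-fat offspring of control mothers (2.85), low-fat offspring of control mothers (2.52), low-fat offspring of shifted mothers (2.22), shifted fetuses (1.90) and shifted mothers (1.88). Neighbouring arms in such an order overlapped for every member, except at the step between fetuses and the other stages for Btg2 and Ier3.

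**Figure D1:**
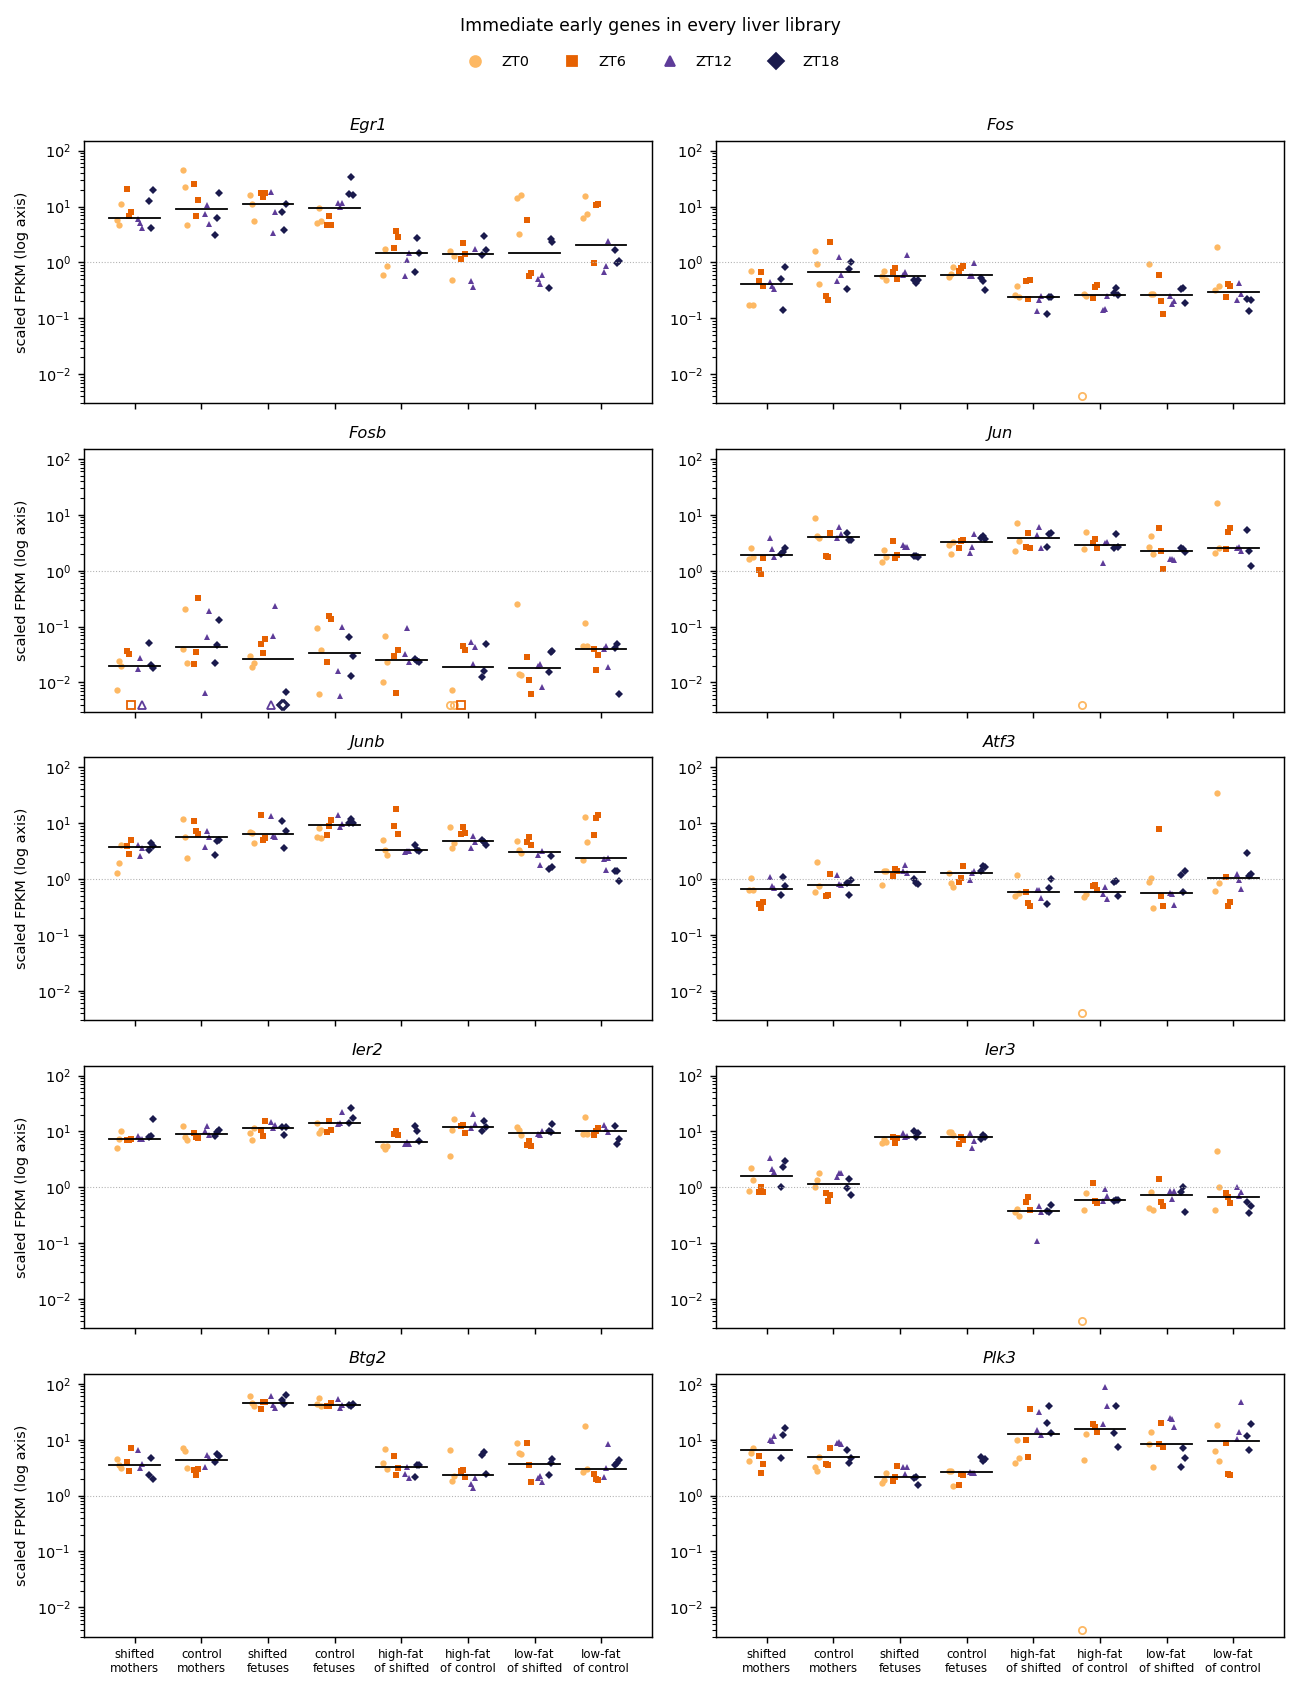
Scaled FPKM of the 10 genes in all 96 libraries on a log axis, by arm; symbols mark ZT, black bars the median of 12 libraries, the dotted line 1 FPKM and open symbols at the bottom values listed at 0. Btg2 (36.1 to 64.4 FPKM) and Ier3 (5.09 to 10.2 FPKM) in fetuses lie above every library of the other stages.

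A gene was tested where at least 3 libraries of a fit reached 1 FPKM, which all members but Fosb did in mothers and all but Fos and Fosb did in fetuses and in offspring. Levels were compared over the 4 times together on the log2(FPKM + 1) scale, which understates the change of low genes. In mothers, the schedule comparison sets livers under repeated light advances in pregnancy against control livers. Jun was lower in shifted mothers in every library pair of the same time, and Junb was lower over the 4 times together. In shifted mothers Jun was at 1.60, 2.56 and 1.76 FPKM at ZT0, 1.04, 0.870 and 1.69 FPKM at ZT6, 3.79, 2.40 and 1.74 FPKM at ZT12, and 1.999, 2.18 and 2.54 FPKM at ZT18. In control mothers Jun was at 8.87, 4.19 and 3.91 FPKM at ZT0, 1.85, 1.75 and 4.79 FPKM at ZT6, 3.90, 5.99 and 4.57 FPKM at ZT12, and 4.65, 3.57 and 3.53 FPKM at ZT18. At each of the 4 times all 3 shifted libraries lay below all 3 control libraries, closest at ZT6 and ZT12. The log2 difference was −0.78 (SE 0.14, 95% interval −1.07 to −0.49), and the ratio of the means was 0.469. It passed limma's test with Benjamini-Hochberg adjustment over all genes (adjusted p = 0.00336; 12 of 12 libraries in the direction).

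Junb was at 1.26, 1.93 and 4.09 FPKM at ZT0, 3.83, 2.79 and 4.97 FPKM at ZT6, 3.98, 2.63 and 3.64 FPKM at ZT12, and 3.30, 4.36 and 3.91 FPKM at ZT18 in shifted mothers. Control mothers had Junb at 12.1, 5.69 and 2.35 FPKM at ZT0, 11.0, 7.19 and 6.37 FPKM at ZT6, 3.80, 7.16 and 5.59 FPKM at ZT12, and 2.65, 4.75 and 5.01 FPKM at ZT18. The groups were apart at ZT6 only. Its log2 difference was −0.63 (SE 0.19), with an adjusted p of 0.0412 by limma and 11 of 12 libraries in the direction. These 2 of the 9 members tested passed, both lower, where 7.91% of all 10351 genes passed and 4.42% passed as lower. Of the genes that passed, 44.1% were higher with the scaling used and 9.64% on the deposited scale. The Jun call held without any single library, with adjusted p between 0.00307 and 0.00888. The Junb call held in 10 of 24 such fits only, and was lost with the low-value filter off (adjusted p = 0.0694), with GC and length trends removed (0.134) or without one of 14 libraries. Those were control mothers ZT0 replicates 1 and 2, ZT6 replicates 1 and 2, ZT12 replicates 2 and 3 and ZT18 replicates 2 and 3, and shifted mothers ZT0 replicate 1, ZT6 replicates 1 and 2, ZT12 replicates 2 and 3 and ZT18 replicate 3, with adjusted p up to 0.0747.

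The other members did not pass in mothers. Egr1 ran from 4.14 to 20.3 FPKM in shifted mothers (median 6.33) and from 3.06 to 45.8 FPKM in control mothers (median 8.97). The interval of its log2 difference, −1.09 to 0.32, holds changes in both directions. Fos had a median of 0.414 FPKM in shifted mothers and 0.678 FPKM in control mothers, with a log2 difference of −0.31 (limma adjusted p = 0.187). It met the filter only through control mothers, with 4 libraries at 1 FPKM or more against 0 in shifted mothers. Its entry into the test was thus tied to the direction of the difference. Fosb stayed below the filter. Log2 differences were −0.16 for Atf3, −0.19 for Ier2 and −0.14 for Btg2. Ier3 and Plk3 had positive differences, of 0.27 and 0.34, with limma adjusted p of 0.116 and 0.161. At single times, no member passed at ZT0, ZT6, ZT12 or ZT18, where 1.37%, 0.271%, 0% and 3.43% of all genes passed. At ZT12, where limma called no gene at all, 621 genes had an unadjusted p under 0.05. The Jun differences at those times were −1.10, −0.71, −0.70 and −0.60, with adjusted p of 0.0571, 0.41, 0.752 and 0.231.

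Other gene lists in mothers were counted beside the members. Of 30 other immediate early genes tested, 1 rose and 1 fell. Jund, the other JUN relative, fell by 1.0 on the log2 scale (SE 0.17, limma adjusted p = 0.00206). Dusp6, which dephosphorylates ERK kinases, rose by 0.55 (SE 0.11, adjusted p = 0.00716). The median of that list was −0.0037, against −0.0035 over all genes, while the members' median was −0.19. None of 19 upstream factors and kinases and none of 8 integrated stress response genes passed. On the deposited scale 3 of 20 upstream factors and kinases, 3 of 30 other immediate early genes and 3 of 11 p53 targets passed as lower. Of 11 p53 targets, Gdf15 and Cdkn1a fell, by 0.72 and 1.44 on the log2 scale (adjusted p = 0.00103 and 0.00379). Of 11 glucocorticoid response genes, the metallothioneins Mt2 and Mt1 rose, by 0.89 and 0.66 (adjusted p = 0.00549 and 0.0419, for Mt1 0.055 on the deposited scale). Of 18 core clock genes 4 rose, among them Per2 by 0.78, Ciart by 0.81 and Tef by 0.51, and 1 fell. Of 9 endothelial markers 6 fell, among them Oit3, Kdr and Clec4g by 0.40, 0.55 and 0.42. All 10 listed endothelial markers were detected in both arms, and their sum was 31.3 to 64.2 FPKM in shifted mothers (median 38.7) and 41.7 to 59.6 FPKM in control mothers (median 56.1). None of 12 Kupffer cell and macrophage markers passed with the scaling used and 3 passed as lower on the deposited scale. The median difference of that list was −0.36, and its sums were 72.4 to 330 FPKM in shifted mothers (median 189) and 151 to 260 FPKM in control mothers (median 226). The part of these cells in the Jun and Junb differences was not tested.

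In fetuses, Jun was again the member that passed. Shifted fetuses had Jun at 1.40, 2.35 and 1.73 FPKM at ZT0, 3.43, 1.70 and 1.93 FPKM at ZT6, 2.90, 2.63 and 2.60 FPKM at ZT12, and 1.84, 1.86 and 1.74 FPKM at ZT18. Control fetuses had it at 2.87, 1.97 and 3.21 FPKM at ZT0, 2.58, 3.43 and 3.51 FPKM at ZT6, 2.09, 2.70 and 4.51 FPKM at ZT12, and 3.81, 4.22 and 3.71 FPKM at ZT18. The arms were apart at ZT18 and overlapped at the other times. Its log2 difference was −0.41 (SE 0.10, 95% interval −0.61 to −0.20), the ratio of means was 0.676, and 11 of 12 libraries lay in the direction (limma adjusted p = 0.0258). It was 1 of 8 members tested, where 3.78% of all 11985 genes passed and 1.47% passed as lower. Of the genes that passed, 61.1% were higher with the scaling used, 47.4% on the deposited scale and 41.8% with upper quartile scaling. The call was lost on the deposited scale (adjusted p = 0.0565) and without control fetuses ZT6 replicate 2 or ZT18 replicate 2, or shifted fetuses ZT0 replicate 1 or ZT6 replicate 2 (adjusted p up to 0.0567).

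Ier2 and Junb pointed the same way in fetuses without passing. Ier2 was at a median of 11.5 FPKM in shifted fetuses (7.12 to 15.6) and 14.1 FPKM in control fetuses (9.48 to 26.8), with a log2 difference of −0.35 (limma adjusted p = 0.127). Junb was at 6.30 FPKM in shifted fetuses and 9.20 FPKM in control fetuses, with a difference of −0.31 (adjusted p = 0.329). Egr1 was apart between the arms at ZT6 and ZT18, in opposite directions, which is a description of picked times with no test at single times. At ZT6 it was at 17.4, 15.01 and 17.6 FPKM in shifted fetuses, all above 4.69, 6.67 and 4.62 FPKM in control fetuses. At ZT18 it was at 7.99, 3.86 and 11.0 FPKM in shifted fetuses, all below 16.5, 33.6 and 15.8 FPKM in control fetuses. Over the 4 times its log2 difference was 0.07 (adjusted p = 0.861). The test of time by schedule passed for no gene in fetuses, where 386 of 11985 had an unadjusted p under 0.05.

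Among the other immediate early genes in fetuses, 3 of 32 passed. Jund fell by 0.87 (SE 0.13, limma adjusted p = 0.00159), while Sgk1, a serum-induced kinase, and Myc rose by 0.28 and 0.20 (adjusted p = 0.0153 and 0.0479). With upper quartile scaling Myc had an adjusted p of 0.0719. Of 8 integrated stress response genes Cebpb fell by 0.59 (adjusted p = 0.0311), and of 11 p53 targets Ccng1 rose by 0.21 (adjusted p = 0.02, and 0.0631 on the deposited scale). No upstream factor or kinase and no marker of any of the 8 cell type lists passed.

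**Figure D2:**
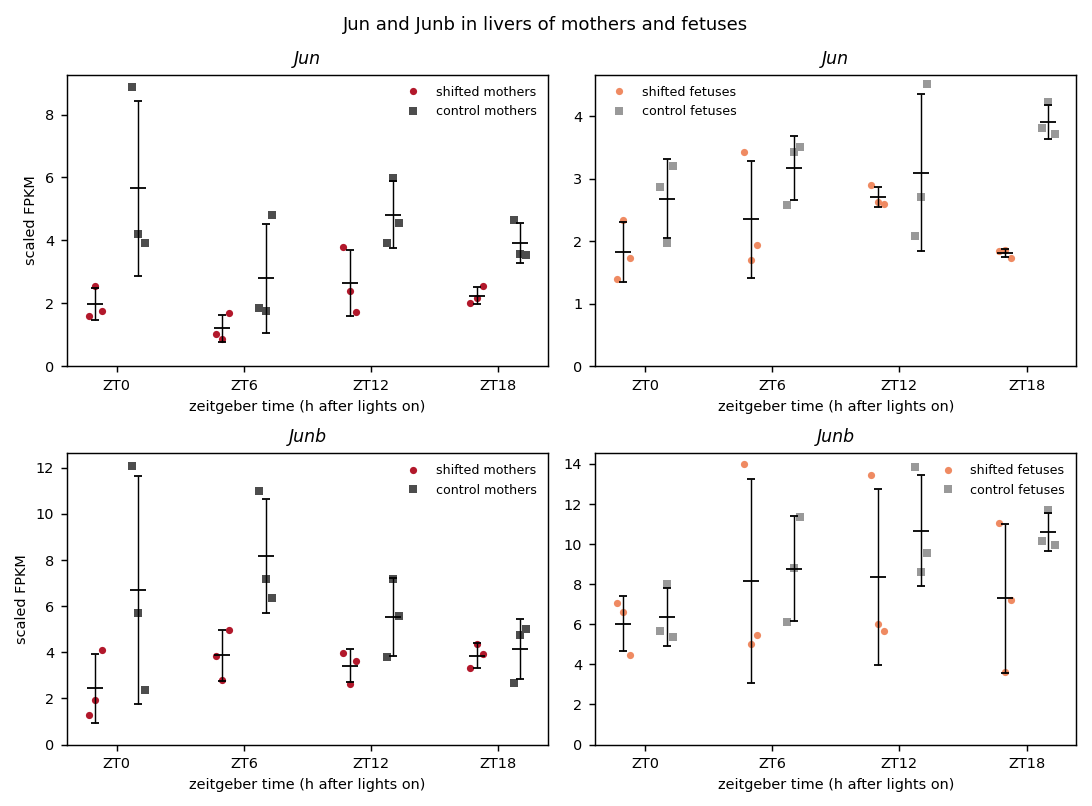
Scaled FPKM of Jun and Junb by zeitgeber time in livers of mothers (left) and fetuses (right); points are libraries, bars the mean and SD of 3, shifted left of control at each time. Jun lay lower in shifted mothers at all 4 times, and in shifted fetuses without overlap at ZT18 only.

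In offspring, the schedule of the mother was compared within each diet. On the high-fat diet Ier2 was lower in offspring of shifted mothers. Values were 5.47, 4.78 and 5.56 FPKM at ZT0, 9.05, 10.2 and 8.64 FPKM at ZT6, 5.99, 6.40 and 5.95 FPKM at ZT12, and 12.4, 9.99 and 6.72 FPKM at ZT18 in that arm. The high-fat offspring of control mothers had 3.56, 10.4 and 16.6 FPKM at ZT0, 12.2, 13.2 and 9.26 FPKM at ZT6, 11.5, 20.5 and 13.6 FPKM at ZT12, and 10.3, 15.6 and 12.1 FPKM at ZT18. The groups were apart at ZT12, where the shifted arm lay within a narrow band, and overlapped at the other times. The overlap at ZT0 rested on the value of 3.56 FPKM, in the library that listed 15512 genes at 0. The log2 difference was −0.61 (SE 0.15, ratio of means 0.612, 12 of 12 libraries, limma adjusted p = 0.000949). It was 1 of 8 members tested, where 48.2% of all 10849 genes passed and 21.9% passed as lower. Of the genes that passed, 54.6% were higher with the scaling used, 84.6% on the deposited scale and 67.3% with upper quartile scaling, and the deposited scale moved the median of all genes by 0.21 on the log2 scale. Without the library that listed 15512 genes at 0 the difference was −0.72 (adjusted p = 7.3e-06).

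The other members on the high-fat diet did not pass. Jun had a median of 3.91 FPKM in offspring of shifted mothers (2.28 to 7.20) and 2.85 FPKM in offspring of control mothers (0 to 4.87), with a log2 difference of 0.42 (limma adjusted p = 0.169, and 0.0463 on the deposited scale). Without the library that listed 15512 genes at 0 the Jun difference was 0.26 (adjusted p = 0.333). Egr1 was low in both, at 0.575 to 3.72 FPKM in offspring of shifted mothers and 0.367 to 2.98 FPKM in offspring of control mothers. Of 30 other immediate early genes 5 passed, 2 higher and 3 lower, among them Klf2, a flow-responsive endothelial factor, at −0.74, and Zfp36l1, an mRNA decay factor, at 0.35. On the deposited scale 5 were higher and 1 lower. Of 20 upstream factors and kinases 10 passed, 7 higher and 3 lower, while 11 were higher and 0 lower on the deposited scale and 8 were higher and 0 lower with upper quartile scaling. Of 11 p53 targets 5 rose and 1 fell. The hepatocyte markers summed to 33800 to 55300 FPKM in offspring of shifted mothers (median 45700) and 43600 to 71600 FPKM in offspring of control mothers (median 56500), and of 8 markers 2 were higher and 2 lower under each of the 3 scalings. Of 8 endothelial markers 3 passed as lower (0 with upper quartile scaling, and 1 as higher on the deposited scale). Of 9 stellate cell and fibroblast markers 3 were higher and 1 lower, of 12 Kupffer cell and macrophage markers 1 was higher and 2 lower, 2 of 5 cholangiocyte and 2 of 4 lymphocyte markers were lower, 2 of 4 erythroid markers were higher and none of 2 neutrophil markers passed. On the deposited scale no stellate cell or Kupffer cell marker passed as lower, and 1 cholangiocyte and 1 lymphocyte marker did. Their part in the Ier2 difference was not tested.

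On the low-fat diet no member of 8 passed between offspring of shifted and control mothers, where 0.00922% of all genes, 1 gene, passed and 806 had an unadjusted p under 0.05. The interval for Jun was −0.91 to 0.11, around a log2 difference of −0.40 (limma adjusted p = 0.777). Atf3 had a ratio of means of 0.34 that rested on 1 library at 34.5 FPKM, and a log2 difference of −0.38 (adjusted p = 0.839). The interaction of maternal schedule and diet, which tests whether the schedule difference itself differed between diets, passed for 0 of 8 members and 24.2% of all genes. Of those genes 57.4% had a positive value with the scaling used, 87.6% on the deposited scale and 78.6% with upper quartile scaling. The interaction was 0.82 for Jun (limma adjusted p = 0.0892, and 0.0453 on the deposited scale), 0.53 for Egr1 (adjusted p = 0.323) and −0.44 for Ier2 (adjusted p = 0.12). Without the library with 15512 genes at 0, that of Ier2 was −0.55 and passed (adjusted p = 0.0116), while that of Jun was 0.66 (adjusted p = 0.107) and that of Egr1 0.58 (adjusted p = 0.25).

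Diet was compared within each maternal schedule. Among offspring of control mothers Egr1 was lower on the high-fat diet. In the high-fat arm it was at 1.62, 0.478 and 1.28 FPKM at ZT0, 1.17, 2.25 and 1.43 FPKM at ZT6, 0.466, 0.367 and 1.71 FPKM at ZT12, and 1.36, 2.98 and 1.70 FPKM at ZT18. In the low-fat arm it was at 6.32, 15.2 and 7.24 FPKM at ZT0, 0.960, 10.7 and 11.2 FPKM at ZT6, 0.663, 0.848 and 2.45 FPKM at ZT12, and 1.65, 0.994 and 1.06 FPKM at ZT18. The diets were apart at ZT0, and at ZT6 the 2 nearly equal low-fat libraries lay above all 3 high-fat libraries. The log2 difference was −0.88 (SE 0.27, ratio of means 0.283, 8 of 12 libraries, limma adjusted p = 0.026). It was 1 of 8 members, where 14.6% of all genes passed and 7.84% passed as lower. Of the genes that passed, 46.2% were higher with the scaling used, 14.6% on the deposited scale and 20.3% with upper quartile scaling. Without the library that listed 15512 genes at 0 the Egr1 difference was −0.92 (adjusted p = 0.0211). The call was lost with the low-value filter off and with a pseudocount of 0.1 (adjusted p = 0.0501 in each), with the nearly equal pairs averaged (adjusted p = 0.0697), and without low-fat offspring of control mothers ZT6 replicate 2, ZT6 replicate 3 or ZT12 replicate 3 or high-fat offspring of control mothers ZT12 replicate 2 (up to 0.0626).

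Among offspring of shifted mothers Junb was higher on the high-fat diet. It was at 5.05, 3.27 and 2.67 FPKM at ZT0, 8.71, 17.6 and 6.41 FPKM at ZT6, 3.09, 3.16 and 3.23 FPKM at ZT12, and 4.02, 3.31 and 3.23 FPKM at ZT18 in the high-fat arm. In the low-fat arm it was at 4.85, 3.26 and 2.89 FPKM at ZT0, 4.57, 5.56 and 4.08 FPKM at ZT6, 2.64, 1.77 and 3.18 FPKM at ZT12, and 1.49, 2.60 and 1.64 FPKM at ZT18. The diets were apart at ZT6 and ZT18. The log2 difference was 0.46 (SE 0.17, ratio of means 1.65, 10 of 12 libraries, limma adjusted p = 0.0432), and it was 1 of 8 members where 23.2% of all genes passed and 11.5% passed as higher. Of the genes that passed, 49.7% were higher with the scaling used and 69.3% on the deposited scale. The call held without a single library in only 9 of 25 fits and was lost with the low-value filter off (adjusted p = 0.074), with GC and length trends removed (0.0668) and with the nearly equal pairs averaged (0.0709). Among offspring of control mothers Junb differed by 0.43 between the diets (adjusted p = 0.0754, and 0.0395 with a pseudocount of 0.1), and by 0.35 without the library with 15512 genes at 0 (adjusted p = 0.126). Other members fell short, such as Ier3 at −0.27 in offspring of shifted mothers (adjusted p = 0.126, 12 of 12 libraries). Of 30 other immediate early genes, 1 was higher and 1 lower on the high-fat diet in offspring of shifted mothers, and 2 were higher and 1 lower in offspring of control mothers (2 higher and 4 lower on the deposited scale). Jund, which fell in shifted mothers and fetuses, was higher on the high-fat diet by 0.62 in each of these comparisons (adjusted p = 0.0106 in offspring of shifted mothers and 0.0171 in offspring of control mothers, where it was 0.0687 with upper quartile scaling). Markers of several cell types moved with diet. In offspring of shifted mothers 2 of 8 endothelial and 2 of 5 cholangiocyte markers were lower, 2 of 4 erythroid markers were higher, 1 of 9 stellate cell and fibroblast markers was higher and 4 lower, and 1 of 8 hepatocyte markers was higher and 3 lower. On the deposited scale 1 endothelial, 1 stellate cell and 2 hepatocyte markers were lower there. In offspring of control mothers 2 of 8 endothelial markers were higher and 1 lower (0 and 1 with upper quartile scaling), 1 of 9 stellate cell and 1 of 5 cholangiocyte markers were lower, and 1 of 8 hepatocyte and 1 of 4 lymphocyte markers were higher (0 of each with upper quartile scaling). Their part in the member differences was not tested.

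**Figure D3:**
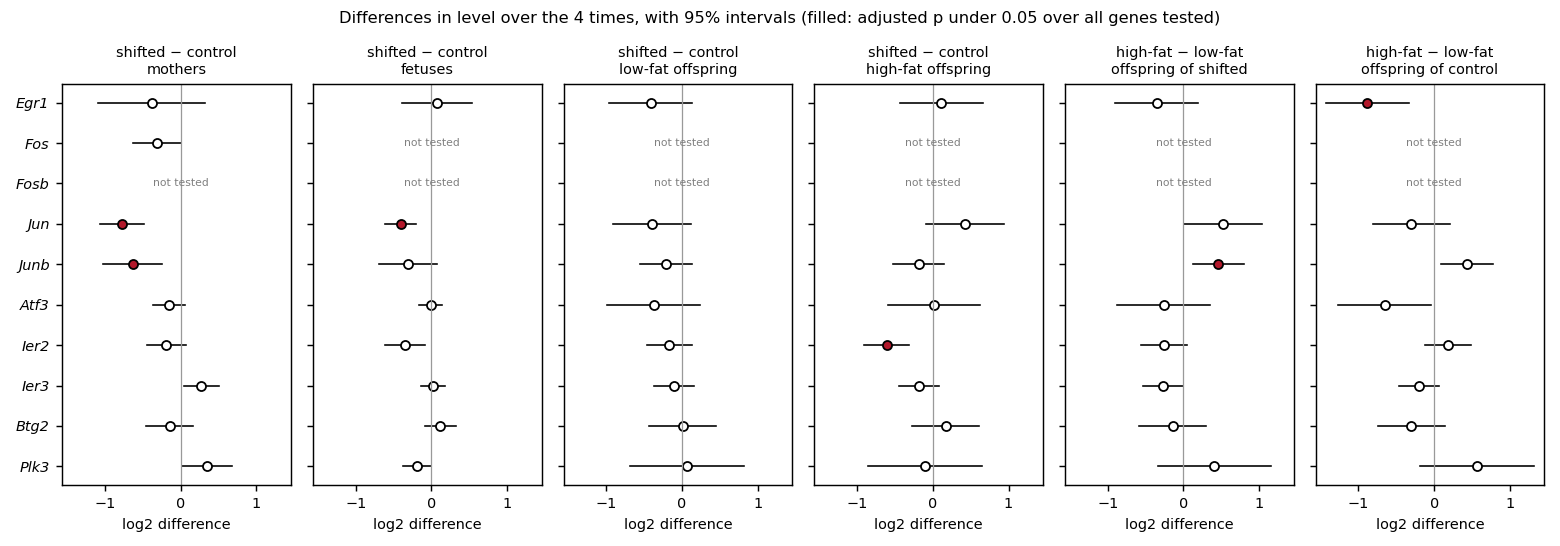
Log2 differences of each gene over the 4 times in 6 comparisons, with 95% intervals from limma; filled points passed the adjusted p of 0.05 over all genes tested, and genes below the filter are marked as not tested. Jun in mothers (−0.78) and fetuses (−0.41), and Ier2 in high-fat offspring by schedule (−0.61), are among the 6 filled points.

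Time of day was tested within each arm with an F test over the 4 times. In offspring Junb peaked at ZT6 in all 4 arms. By means taken on the log2(FPKM + 1) scale, which understates folds of low values, its highest group stood at 2.65 times its lowest in high-fat offspring of shifted mothers, 1.48 times in high-fat offspring of control mothers, 1.99 times in low-fat offspring of shifted mothers and 5.1 times in low-fat offspring of control mothers. The test passed in 3 of these arms (limma adjusted p = 0.011 in high-fat offspring of shifted mothers, 0.0222 in low-fat offspring of shifted mothers and 0.0211 in low-fat offspring of control mothers). In high-fat offspring of control mothers, where all 12 libraries lay between 3.61 and 8.66 FPKM, its adjusted p was 0.535. At ZT0 of that arm, Junb was at 8.57 FPKM in the library that listed 15512 genes at 0, and at 3.61 and 4.38 FPKM in the others.

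In low-fat offspring of shifted mothers 4 of 7 members tested passed, where 23.2% of all genes did. Egr1 was at 14.4, 3.22 and 15.9 FPKM at ZT0, 5.66, 0.563 and 0.634 FPKM at ZT6, 0.499, 0.403 and 0.587 FPKM at ZT12, and 0.350, 2.63 and 2.29 FPKM at ZT18 (limma adjusted p = 0.0254). It was highest at ZT0 and lowest at ZT12, a ratio of 6.89 by means on the log2(FPKM + 1) scale. Plk3 was at 8.21, 13.6 and 3.23 FPKM at ZT0, 8.34, 19.8 and 7.28 FPKM at ZT6, 24.1, 23.9 and 17.2 FPKM at ZT12, and 3.23, 7.16 and 4.80 FPKM at ZT18 (adjusted p = 0.0296). Its 3 libraries at ZT12 lay above all at ZT0 and ZT18. Ier2 was at 12.1, 10.4 and 8.51 FPKM at ZT0, 5.80, 6.67 and 5.46 FPKM at ZT6, 8.99, 8.56 and 10.03 FPKM at ZT12, and 10.3, 9.92 and 13.7 FPKM at ZT18 (adjusted p = 0.0204), lowest at ZT6 without overlap. With the nearly equal libraries at ZT12 averaged, 2 of the 4 passed and Egr1 and Plk3 did not (adjusted p = 0.056 and 0.0876). With the low-value filter off Ier2 alone of the 4 passed (0.0774 for Egr1, 0.0572 for Junb and 0.0812 for Plk3). With all libraries of the stage fitted Egr1 alone passed (0.0685 for Junb, 0.0952 for Ier2 and 0.139 for Plk3). The Ier2 call was also lost on the deposited scale (0.0925) and with GC and length trends removed (0.0747), and that of Plk3 with a 24 h cosine (0.0521). Each of the 4 calls was also lost without one of 2 to 4 single libraries, at ZT0 replicates 1 or 3 and ZT12 replicates 1 or 2 for Egr1, ZT6 replicates 1 or 2 and ZT18 replicate 1 for Junb, ZT6 replicates 1 or 3 for Ier2, and ZT12 replicates 1 or 2 and ZT18 replicates 1 or 3 for Plk3 (adjusted p between 0.0532 and 0.0881).

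In low-fat offspring of control mothers Junb alone passed, 1 of 7 members, where 14.2% of all genes did. It was at 2.16, 12.9 and 4.57 FPKM at ZT0, 6.24, 12.4 and 14.1 FPKM at ZT6, 2.31, 1.43 and 2.39 FPKM at ZT12, and 1.38, 1.40 and 0.932 FPKM at ZT18. The 3 libraries at ZT6 lay above all at ZT12 and ZT18. The call was lost without ZT6 replicate 2, ZT6 replicate 3 or ZT18 replicate 3, and with the nearly equal pair at ZT6 averaged (adjusted p = 0.0695). Egr1 in this arm had an adjusted p of 0.0538. In high-fat offspring of shifted mothers Junb and Ier2 passed, 2 of 6 members, where 30.3% of all genes did, and both calls held without any single library of the arm. Ier2 there was high at ZT6 and ZT18 and low at ZT0 and ZT12 (adjusted p = 0.0113). Both calls were lost with a 24 h cosine in place of the 4 means (adjusted p = 0.862 for Ier2 and 0.0621 for Junb), and that of Ier2 with all libraries of the stage fitted (0.336). In low-fat offspring of shifted mothers ZT6 was the time at which Ier2 was lowest. In high-fat offspring of control mothers 0 of 6 members passed, where 0.753% of all genes did and the library with 15512 genes at 0 stood at ZT0. Without that library 0 of 6 passed as well. There Plk3 spanned 0 to 88.4 FPKM, with 19.2, 88.4 and 39.8 FPKM at ZT12 (adjusted p = 0.27).

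Other lists by time of day passed in other numbers. Of the other immediate early genes, 12 of 29 passed in high-fat offspring of shifted mothers, 1 of 29 in high-fat offspring of control mothers, 9 of 28 in low-fat offspring of shifted mothers and 3 of 28 in low-fat offspring of control mothers. Of the 18 core clock genes, 17 passed in high-fat offspring of shifted mothers, 10 in high-fat offspring of control mothers, 13 in low-fat offspring of shifted mothers and 14 in low-fat offspring of control mothers. In mothers no member passed, 0 of 8 in shifted mothers (0.717% of all genes) and 0 of 9 in control mothers (4.28%). Plk3 had an adjusted p of 0.29 in shifted mothers and 0.0699 in control mothers, where its 3 highest values, 8.88, 9.11 and 8.50 FPKM, all fell at ZT12. In fetuses limma called no gene of 11692 in shifted and none of 11762 in control fetuses, with 600 genes in shifted and 512 in control fetuses at an unadjusted p under 0.05. Egr1 in control fetuses, at 16.5, 33.6 and 15.8 FPKM at ZT18 against 4.62 to 11.4 FPKM at the other times, was among these (unadjusted p = 0.000229, adjusted p = 0.764).

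Whether the time profile differed between arms was tested in 6 comparisons, and no member passed in any of them. The shares of all genes that passed were 1.64% in mothers, 0% in fetuses, 0% by schedule in high-fat offspring (803 genes at an unadjusted p under 0.05), 0.0461% by schedule in low-fat offspring, 0.157% by diet in offspring of shifted mothers and 0.0277% by diet in offspring of control mothers. The smallest adjusted p was that of Egr1 by diet in offspring of shifted mothers (0.112). A member called in one arm and not in another is therefore not shown to differ between them.

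**Figure D4:**
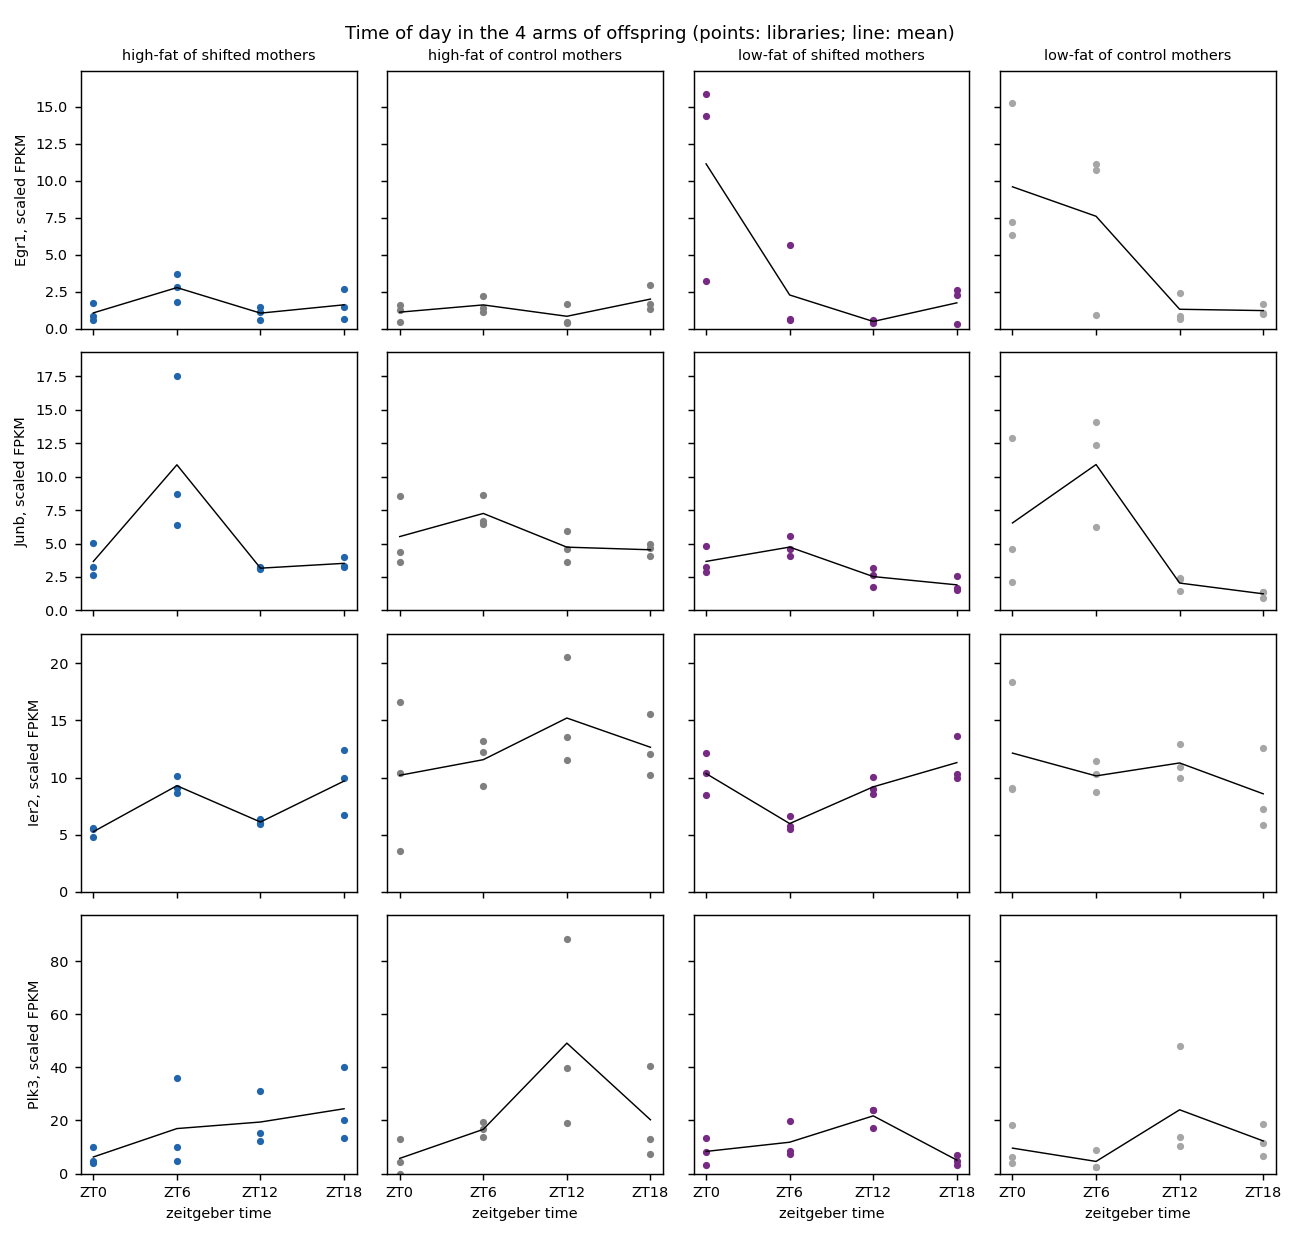
Scaled FPKM of Egr1, Junb, Ier2 and Plk3 by zeitgeber time in the 4 arms of offspring; points are libraries and the line joins group means. Junb was highest at ZT6 in each arm, and Egr1 was high at ZT0 on the low-fat diet (up to 15.9 FPKM) and stayed under 4 FPKM in every high-fat library.

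The spread between the 3 libraries of a group set how far these genes could be read. Egr1, a zinc finger transcription factor, lies at chr18:34859823-34864984 on the plus strand. In mothers its pooled replicate SD was 0.91 on the log2 scale, the 68th largest of 10351 genes, against a median of 0.207. That of Junb was 0.49, that of Jun 0.37 and that of Atf3 0.26 (rank 3259). In offspring Plk3 had an SD of 0.96, ranked 73 of 10849, Atf3 0.78 (rank 145), Egr1 0.70 (rank 204) and Jun 0.65 (rank 256), against a median of 0.253. The others were lower, Btg2 at 0.56 (rank 458), Junb at 0.43 (rank 1185), Ier2 at 0.37 (rank 1871) and Ier3 at 0.33 (rank 2757). With a pseudocount of 0.1 Junb and Ier2 ranked 3360 and 4279. These offspring values include the library that listed 15512 genes at 0, with Plk3, Jun, Atf3 and Ier3 among them. The lowest deviations of Plk3 and Jun from a group mean, −2.06 and −1.45, were in that library. The spread without it was not computed, so part of these SDs may come from that library. In fetuses Egr1 had 0.58, ranked 483 of 11985 with a median of 0.183, while Atf3 and Ier3 lay near that median at 0.18 and 0.19.

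In some groups 1 library was the highest for most members. The libraries named here and in the next paragraph were picked because the most members were highest of their arm in them. The member counts in them follow from that choice and are no test against the shares of other genes. Replicate 2 at ZT0 of the low-fat offspring of control mothers was the highest of its group of 3 for all 10 members, and the highest of its arm of 12 for 8 of them. Atf3 was at 34.5 FPKM there, against 0.331 to 2.90 FPKM in the other 11 libraries of the arm. Jun was at 16.1 FPKM, against 1.20 to 5.83 FPKM. Fos, Ier3 and Btg2 were at 1.86, 4.48 and 17.6 FPKM, which was 6.87, 6.65 and 5.91 times the median of the other 11. Of the 7 members that passed the filter in that arm 5 were highest there, as were 15 of 28 other immediate early genes, 6 of 9 p53 targets and 17.7% of all genes. Markers of other cells moved with it. Cholangiocyte markers summed to 209 FPKM, against 21.2 to 78.5 FPKM in the other 11, with 5 of 5 highest there. Lymphocyte markers summed to 12.1 FPKM (2.49 to 5.11 FPKM in the others, 8 of 9 highest), neutrophil markers to 20.2 FPKM (0.308 to 14 FPKM, 7 of 8 highest) and Kupffer cell and macrophage markers to 256 FPKM (59.5 to 232 FPKM, 6 of 12 highest). Endothelial markers, at 27.8 FPKM against 28.1 to 53 FPKM, and hepatocyte markers, at 49700 FPKM against 52500 to 67000 FPKM, were lowest there. The part of these cells in the member values was not tested. Without this library the diet difference of Egr1 in offspring of control mothers was −0.79 (limma adjusted p = 0.0478) and that of Atf3 was −0.29, against −0.65 with it (adjusted p = 0.289 and 0.131). Without the library with 15512 genes at 0 instead, that of Atf3 was −0.61 (adjusted p = 0.161).

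Smaller gaps of this kind stood in other libraries, picked by the same count of members. Replicate 1 at ZT6 of the low-fat offspring of shifted mothers held the highest Atf3 of its arm, 7.94 FPKM, which was 14.3 times the median of the other 11, and was highest for 4 members. Of the 7 members that passed the filter 3 were highest there, as were 6 of 28 other immediate early genes, 6 of 9 integrated stress response genes and 11.6% of all genes. Its Kupffer cell and macrophage markers summed to 326 FPKM, against 96.8 to 265 FPKM in the other 11, with 11 of 12 highest there. Its lymphocyte markers summed to 6.37 FPKM, against 1.9 to 4.35 FPKM, and its hepatocyte markers to 41200 FPKM, the lowest of the arm (45200 to 88000 FPKM in the others). Replicate 1 at ZT0 of the control mothers was the highest of its arm for Egr1 (45.8 FPKM), Jun (8.87 FPKM), Junb (12.1 FPKM) and Btg2 (7.16 FPKM). These were 4 of the 9 members that passed the filter, where 3 of 30 other immediate early genes and 9.15% of all genes were highest. Of 9 endothelial markers 5 were highest of the arm in that library, though their sum of 56.1 FPKM lay within the 41.7 to 59.6 FPKM of the other 11. Stellate cell and fibroblast markers summed to 93.9 FPKM (50.1 to 88.6 FPKM in the others), neutrophil markers to 18.4 FPKM (3.49 to 17.4 FPKM) and lymphocyte markers to 3.03 FPKM (1.07 to 2.68 FPKM), each the highest of the arm. The part of these cells in the member values was not tested. Over the 32 groups, 1 of the 3 libraries was highest for at least 8 of the 10 members in 4 groups and for 4 members in 4 groups. With 10 genes and 3 libraries, 4 is the fewest that the leading library can hold. These counts include Fos and Fosb where they stayed below the filter. The matching share over all genes was not computed, so the counts are not read as a trait of the members.

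**Figure D5:**
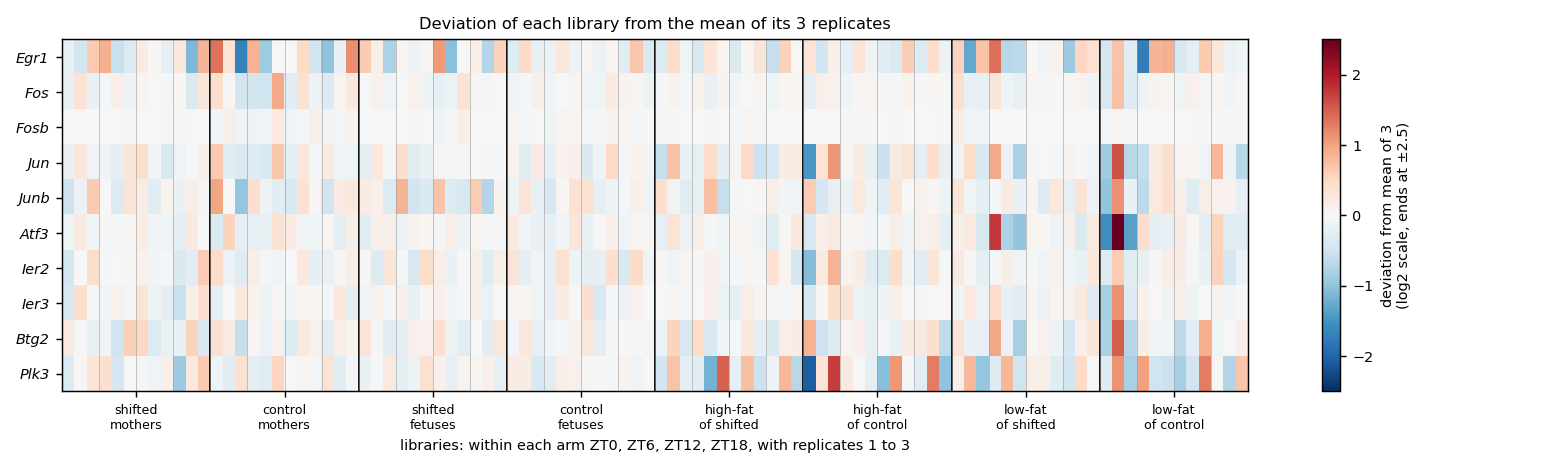
Deviation of each library from the mean of its 3 replicates on the log2(FPKM + 1) scale, genes in rows and libraries in columns by arm, ZT and replicate; red is above and blue below the mean. The red column in the last block is replicate 2 at ZT0 of the low-fat offspring of control mothers, with Atf3 2.91 above its group mean.

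Genes whose deviations within groups were most like those of the members were listed by their mean correlation with the members tested. In offspring, over 48 libraries and 8 members, the top genes were D17H6S56E-5 (mean r 0.586), Gsta1 (0.581), Ccnb2 (0.581), Gm3776, Arhgef2, Gm10639, Cdca3, Relb, Ube2c and Nupr1 (0.564). Without replicate 2 at ZT0 of the low-fat offspring of control mothers their mean r was 0.308 to 0.396, 4 of the 10 stayed on the list, and Map4k4 led it (0.419). Both lists include the library that listed 15512 genes at 0, among them Jun, Atf3, Ier3 and Plk3. Genes listed at 0 together there can correlate for that reason, and the list was not repeated without it. In mothers the list was led by Phf14 (0.453), Gtf2a2 (0.436) and Zdhhc17 (0.435) over 24 libraries and 9 members. In fetuses it was led by Hist1h2bl (0.429), Mospd3 (0.414) and Tmco6 (0.403) over 24 libraries and 8 members. These correlations share libraries and scaling and are a description.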

How the data were processed

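Poly(A) RNA of mouse liver was sequenced in 96 stranded libraries, per the labels' protocols. The authors aligned and quantified with TopHat2 2.1.1 and Cufflinks 2.2.1 on mm10, per the submitters' processing notes, and deposited FPKM values in 1 table for each of the 8 arms. Strand and multi-mapping settings are not known here. There were no counts among the values used, so the depth is unknown and no counting interval is given.

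Symbols on more than 1 entry (817 of 24883 entries) were left out, which kept 24066 genes. Values were divided by median-of-ratios factors within mothers, fetuses or offspring and taken as log2(FPKM + 1). limma 3.58.1 in R 4.3.3, with an intensity trend, was fitted with 1 mean per arm and time on the stage's libraries (on the arm's 12 for time of day), and p-values were Benjamini-Hochberg adjusted over all genes tested, with a threshold of 0.05. Genes needed 1 FPKM in 3 libraries of the fit. A library of the first-named arm is in the direction when it lies beyond the mean of the other arm at its ZT. The tests were checked on simulated data. Replicate numbers were not used to pair samples. The median correlation of same-numbered deviations was −0.0517 in mothers, 0.0386 in fetuses and −0.00208 in offspring. Single correlations ranged widely, from −0.735 to 0.789 in fetuses, and were taken within a stage only, so pairing is not excluded.

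Alternatives were another pseudocount (0.1), no filter, deposited and upper quartile scaling, a replicate block, GC and length trends removed, other fits, a cosine test, each library left out and, added after seeing the data, near-equal libraries averaged and a library with many zeros removed. Members, gene lists and tests were chosen with earlier results of these data known. Besides the members, the text names up to 3 genes of smallest p per list where a member passed, and the 10 genes most like the members by mean Pearson correlation of deviations from group means.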

Additional observations from a re-analysis of the deposited data

How the results depend on the processing

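No called value of a member changed sign under any alternative run. The number of all genes that passed moved as well, so the member counts below are not read as a trait of the members. By time it ranged from 28 to 1861 in high-fat offspring of control mothers (76 in the main fit). In high-fat offspring of shifted mothers it ranged from 280 to 3038 (3038 in the main fit). By schedule it ranged from 779 to 1255 in mothers (819) and from 177 to 489 in fetuses (453). Numbers of members that passed moved as follows. With the low-value filter off, 1 passed in mothers against 2, 0 in each diet comparison against 1, and 1 by time in low-fat offspring of shifted mothers against 4. On the deposited scale 0 passed in fetuses against 1, 2 by schedule in high-fat offspring against 1, 1 in the interaction against 0, 1 at ZT0 in mothers against 0, and 2 by time in low-fat offspring of control mothers against 1. With the replicate block, 1 passed in mothers against 2, and 2 by time in low-fat offspring of control mothers against 1. No pairing by replicate number is known, and with the block Egr1 passed by time in high-fat offspring of shifted mothers (limma adjusted p = 0.0119). With GC and length trends removed, 1 passed in mothers and 0 by diet in offspring of shifted mothers. With only the 2 arms fitted, 3 passed by diet in offspring of shifted mothers. With the cosine test, 2 passed by time in low-fat offspring of control mothers and 0 in high-fat offspring of shifted mothers against 2. With all libraries of the stage fitted, 2 passed by time in low-fat offspring of control mothers, 1 in low-fat offspring of shifted mothers, 1 in high-fat offspring of control mothers against 0 and 1 in high-fat offspring of shifted mothers. With near-equal pairs averaged, 0 passed in each diet comparison, and by time 0 in low-fat offspring of control mothers and 2 in low-fat offspring of shifted mothers.

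Leaving out 1 library gave 1 to 4 members in mothers, 0 to 1 in fetuses, 1 to 1 by schedule in high-fat offspring, 0 to 2 by diet in offspring of control mothers, 0 to 1 by diet in offspring of shifted mothers, 0 to 1 in the interaction, 0 to 1 at ZT0 and 0 to 2 at ZT18 in mothers. By time it gave 0 to 1 in shifted and 0 to 2 in control mothers, 2 to 3 in high-fat offspring of shifted mothers, 2 to 4 in low-fat offspring of shifted mothers and 0 to 2 in low-fat offspring of control mothers, and for time by diet 0 to 1 in each. Jun in mothers and Ier2 by schedule in high-fat offspring passed in every such fit. Over all genes such fits called 489 to 1164 genes in mothers, 197 to 827 in fetuses and 4744 to 5913 by schedule in high-fat offspring. By time they called 1012 to 2958 genes in low-fat offspring of shifted mothers and 439 to 2021 in low-fat offspring of control mothers. The causes were not tested. Depth is unknown, so the error of low values such as Fosb cannot be given.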
